A study of Mus musculus with 69 samples.

Results

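Broad gene-body H3K79me2 domains are the wide end of the histone peaks of this series: peaks of 5000 bp or more that are annotated to a gene body and to no promoter class. They were selected on the width and annotation that the authors deposited, and they number 4592 of the 224193 peaks of both lists, 1400 of 106374 in the list of early life stress (ELS) and 3192 of 117819 in the list of standard rearing (Standard). The study asked about H3K79 methylation in D2-type medium spiny neurons and the transcription downstream of it, using tissue of the male mouse nucleus accumbens. The mark was mapped by chromatin immunoprecipitation (ChIP), with 9 ELS and 9 Standard libraries and 10 ELS and 9 Standard inputs in the labels, and the authors deposited 1 peak list per rearing group. RNA was counted in 4 groups of 8 libraries: ELS with Dot1l knockdown, ELS with GFP, Standard rearing with Dot1l overexpression, and Standard rearing with GFP. The labels used here give no age, vector, promoter or targeted cell type for these manipulations, and both assays used whole tissue punches, so every value is a mixture of cell types. Since 1 list stands for each rearing group, no difference between the lists has a replicate check, and none was tested.

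H3K79me2 is methylation of lysine 79 in the globular core of histone H3, which DOT1L lays down. DOT1L travels with elongation factors of RNA polymerase II, so the mark lies over the transcribed part of active genes, usually strongest behind the start site and fading towards the end of the gene. Long domains of the mark are known from genes that are highly transcribed and from genes that AF9, ENL and AFF-type elongation proteins occupy.

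Most broad domains shared no base with a promoter window of RefSeq (300 bp, GRCm38.p6, the assembly of mm10), but some ran into one. In all, 155 of the 32851 windows shared at least 1 bp with a domain. 46 of these windows met an ELS domain and 152 a Standard domain. Windows of 4 genes described in what follows are printed here because the edge of the domain falls inside them, or because the window lies wholly inside it. They run 5′ to 3′ on the gene's strand, and capitals mark the bases inside the Standard domain, with starts in the lists taken as 0-based.
Tmem131, chr1:36939478-36939777, minus strand: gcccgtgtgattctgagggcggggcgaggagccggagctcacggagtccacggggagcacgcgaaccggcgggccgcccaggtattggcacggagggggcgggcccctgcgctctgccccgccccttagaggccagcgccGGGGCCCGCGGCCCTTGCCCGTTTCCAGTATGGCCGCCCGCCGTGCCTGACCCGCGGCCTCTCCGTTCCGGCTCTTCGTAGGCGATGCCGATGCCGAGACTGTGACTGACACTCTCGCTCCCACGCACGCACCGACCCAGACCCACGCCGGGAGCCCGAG
Zc3h15, chr2:83644328-83644627, plus strand: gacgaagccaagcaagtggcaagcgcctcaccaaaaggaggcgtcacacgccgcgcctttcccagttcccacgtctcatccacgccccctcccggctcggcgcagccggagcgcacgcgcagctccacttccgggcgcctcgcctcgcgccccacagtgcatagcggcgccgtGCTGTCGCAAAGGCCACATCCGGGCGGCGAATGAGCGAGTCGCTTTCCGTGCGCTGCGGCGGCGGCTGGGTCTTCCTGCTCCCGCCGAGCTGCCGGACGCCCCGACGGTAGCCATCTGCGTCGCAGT
Ubqln1, chr13:58215604-58215903, minus strand: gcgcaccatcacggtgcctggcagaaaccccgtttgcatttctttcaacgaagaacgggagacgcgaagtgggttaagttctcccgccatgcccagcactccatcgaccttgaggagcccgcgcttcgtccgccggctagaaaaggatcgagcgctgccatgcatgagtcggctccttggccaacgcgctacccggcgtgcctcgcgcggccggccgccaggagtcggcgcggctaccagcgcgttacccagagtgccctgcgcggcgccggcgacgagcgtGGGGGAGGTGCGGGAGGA
Sucla2, chr14:73552536-73552835, plus strand: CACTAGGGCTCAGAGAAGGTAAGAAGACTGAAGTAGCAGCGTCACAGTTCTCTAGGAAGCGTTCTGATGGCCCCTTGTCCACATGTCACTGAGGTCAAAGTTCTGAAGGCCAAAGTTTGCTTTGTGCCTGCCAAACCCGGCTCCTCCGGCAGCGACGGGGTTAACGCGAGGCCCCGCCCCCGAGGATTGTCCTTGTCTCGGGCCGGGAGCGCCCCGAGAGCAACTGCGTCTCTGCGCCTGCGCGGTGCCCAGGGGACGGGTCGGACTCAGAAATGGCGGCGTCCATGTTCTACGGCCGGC
An ELS domain reached 0 bases of the Tmem131 window, against 160 for the Standard domain. At Zc3h15 the ELS domain covered 69 bases and the Standard domain 127, and at Ubqln1 6 and 18. At Sucla2 the ELS domain covered 17 bases, while the Standard domain covered all 300. These 4 windows held 38, 42, 39 and 24 CG dinucleotides in the order printed, and the median over all RefSeq windows was 7. They do not stand for all windows that met a domain. Among those not printed, the windows of Sppl2b held 30 and 7 CG dinucleotides, and those of Sptbn1 21 and 2.

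Broad domains were few but long. They made up 10.95% of the summed peak length in ELS and 20.2% in Standard, 10.1 Mb of 92.6 Mb and 25.5 Mb of 126 Mb. Their median width was 6554 bp in ELS and 7075 bp in Standard, against 478 bp and 512 bp for all peaks of those lists. In ELS 160 domains, and in Standard 575, were 10000 bp or wider. The authors' fold enrichment had a median of 2.64 over ELS domains and 2.86 over Standard domains, and of 1.92 and 1.94 over narrower gene-body peaks. The sources used here do not say what the fold is relative to, nor whether both lists share that background, so folds of the lists are set side by side without a comparison of their scale.

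The shortfall of ELS peaks grew with width. Among gene-body peaks under 500 bp the ELS list held 96.4% as many as the Standard list, and 95.5% from 500 to 1000 bp. The ratio was 86.7% from 1000 to 2000 bp, 71.8% from 2000 to 5000 bp, 47.4% from 5000 to 10000 bp and 27.8% at 10000 bp or more. Wide peaks that were annotated to a promoter class went the same way, with 237 in ELS and 529 in Standard at 5000 bp or more, which is 44.8%. The width threshold itself marks no step: just inside it stood peaks of 5000, 5006 and 5009 bp in ELS (Arhgef7, Zc3h3 and Tnik) and of 5000, 5002 and 5004 bp in Standard (Pou2f1, Sipa1l1 and Tnfaip1). Just outside it stood ELS peaks of 4997 bp in each of Nbea, Caln1 and Carm1 and Standard peaks of 4999 bp in each of Ccdc6, Mapk10 and Cttnbp2.

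**Figure D1:**
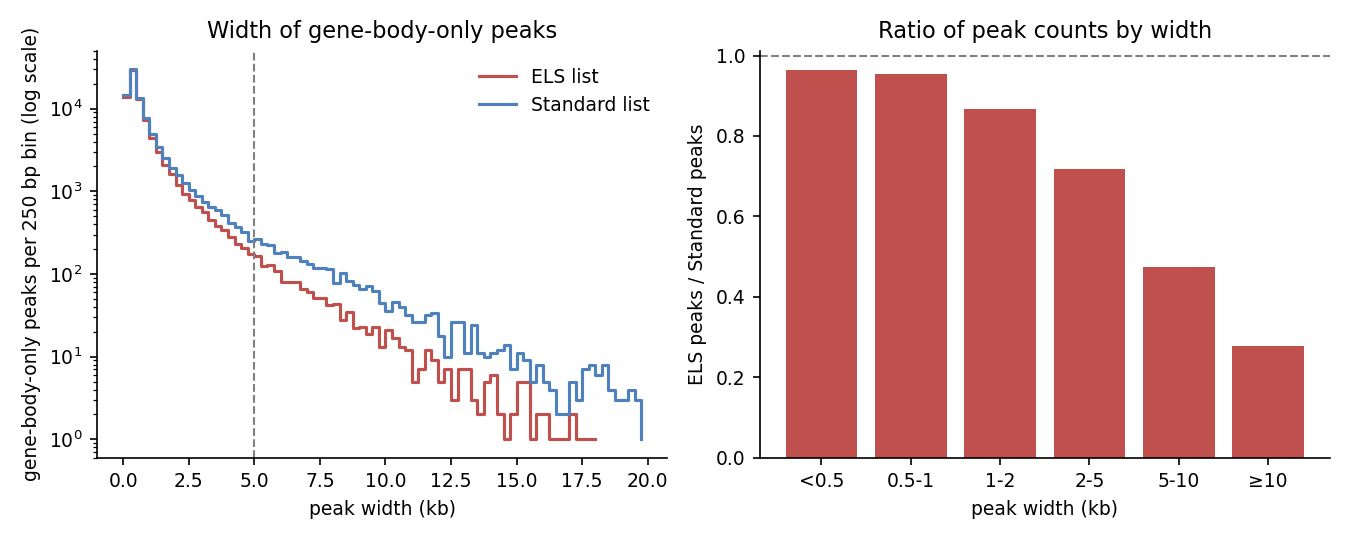
Left, the number of gene-body-only peaks (log scale) per 250 bp of width for the ELS and Standard lists, with the 5000 bp threshold dashed and the axis ending at 20 kb. Right, the number of ELS peaks over the number of Standard peaks by width, which runs from 96.4% under 500 bp to 27.8% at 10000 bp or more.

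The domains lay mostly in the early part of the transcript. The median distance from a domain's midpoint to the nearest annotated start site was 11532 bp in ELS and 13993 bp in Standard, and the midpoint stood at a median of 21.1% and 23.2% of the transcript. In 87.0% of ELS domains and 84.3% of Standard domains the midpoint was nearer to the start than to the end of the transcript, against 74.0% and 70.6% of the narrower gene-body peaks. The class of a peak follows its midpoint, so 23 ELS and 105 Standard domains reached a start site without a promoter line. The leading edge lay within 3000 bp of the nearest start site, or past it, in 407 ELS domains (29.1%) and 925 Standard domains (29.0%). Many domains thus began near a promoter though their midpoint lay in the gene body. All domains were autosomal: 19 chromosomes held them in each list. Chromosome X held 15 ELS and 110 Standard peaks in all, the widest of 422 and 1094 bp, and no broad domain.

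Domains fell in 1893 genes, 999 in ELS and 1856 in Standard, of which 962 had a domain in both lists, 894 in the Standard list alone and 37 in the ELS list alone. That is 24.4% of the 7758 genes with any gene-body peak line. Genes with a domain spanned a median of 68517 bp, and genes with gene-body peaks but no domain 28547 bp. A gene-body line has its midpoint 3001 bp or more from the start site, and a domain is 5000 bp or wider. Short genes thus have little room for a domain, and the selection enters this contrast in span. The number of domains was lower in ELS in 1290 genes and higher in 69. Genes with 5 or more domains numbered 22 in ELS and 99 in Standard. The gene with the highest number of domains was Gm20388, a read-through annotation spanning 4434881 bp, with 18 in ELS and 28 in Standard. Next came Arid1b, a subunit of the BAF chromatin remodelling complex, with 9 and 16, and Dip2c, a disco-interacting protein homologue, with 8 and 16. Auts2, a factor of a variant Polycomb complex active in neurons, had 5 and 14, and Tnik, a kinase of Wnt and synaptic signalling, 5 and 12.

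The widest domain of either list lay in Mprip, which encodes a scaffold that binds myosin phosphatase and actin. It measured 27810 bp in ELS (chr11:59664828-59692638, fold 2.62) and 33789 bp in Standard (chr11:59663399-59697188, fold 3.20). ELS peaks, 4 in number, still covered 97.7% of the Standard domain. Ubqln1, a ubiquilin that hands ubiquitinated proteins to the proteasome, had a domain of 17644 bp in ELS (chr13:58197965-58215609, fold 2.92) and 19163 bp in Standard (fold 3.71). The other widest ELS domains lay in Kansl1 (18239 bp, a scaffold of the NSL acetyltransferase complex), Ell (17488 bp, an elongation factor of RNA polymerase II), Anks1 (17228 bp, an adaptor of Eph receptors) and Tbl1xr1 (17062 bp, a part of the NCoR and SMRT corepressor complexes).

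The remaining widest Standard domains were each split in the ELS list. In Phlpp1, a phosphatase that acts on Akt, 8 ELS peaks covered 91.8% of a Standard domain of 28296 bp. In Tnks, the tankyrase of telomere and Wnt regulation, 7 ELS peaks covered 92.1% of 27049 bp. Usp7, a deubiquitinating enzyme, had 7 ELS peaks over 95.3% of a Standard domain of 25483 bp. Rad54l2, a DNA-dependent ATPase, had 4 over 92.1% of 26789 bp, and Wac, an adaptor of H2B ubiquitination, 9 over 91.6% of 24969 bp. In each of these 5 genes most of the length was still called in ELS, in several shorter peaks.

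The highest fold enrichment was found in other genes. In ELS it was 3.71 in Cops2, a subunit of the COP9 signalosome, against 3.42 in the Standard list, then 3.41 in Zc3h15, a zinc finger protein (3.73 in Standard). Ccdc85c, a protein of apical junctions, had 3.34 in ELS and 3.37 in Standard, and Bicd2, an adaptor of dynein, 3.32 and 3.39. Starting from the Standard list, Sucla2, a subunit of succinyl-CoA ligase in mitochondria, had 3.26 in ELS and 4.11 in Standard, and Sppl2b, an intramembrane protease, 3.43 and 4.02. Rab1a, a GTPase of traffic from the endoplasmic reticulum to the Golgi, had 2.90 and 3.87, and Acvr2b, an activin receptor, 2.97 and 3.85. The lowest folds among domains were 1.49 in Tmcc1 in ELS and 1.96 in Clstn1 in Standard.

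Seen from the Standard domains, the ELS list kept nearly all of their length but broke it up. All 3192 Standard domains overlapped an ELS peak by at least 1 bp, and ELS peaks covered a median of 91.6% of a domain (interquartile range 85.3% to 95.8%). 1 domain had under 50% covered. The median domain met 3 ELS peaks (interquartile range 2 to 4, highest 15), and 2670 domains (83.6%) met 2 or more. The widest of those ELS peaks had a median of 60.0% of the domain's width. In 1279 domains (40.1%) the ELS list held a broad domain too, in 52 (1.63%) a peak of 5000 bp or more with a promoter line, and in 1861 (58.3%) only peaks under 5000 bp.

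The reverse choice gave a different picture, which bears on how far the selection itself sets these values. All 1400 ELS domains overlapped a Standard peak, the median coverage was 100%, and 136 (9.71%) met 2 or more Standard peaks. The Standard list held a broad domain in 1319 of them (94.2%) and only narrower peaks in 44 (3.14%). The widest overlapping Standard peak had a median of 118% of the ELS domain's width. Choosing domains for width in one list favours a narrower partner in the other, so the values of either choice are a description. The share that met several peaks was 9.71% from the ELS side and 83.6% from the Standard side. Narrower gene-body peaks met a partner less often: 90.3% of those in the ELS list overlapped a Standard peak, and 61.0% of those in the Standard list overlapped an ELS peak. A wider peak has more bases with which to meet a partner, so width itself enters this contrast with broad domains.

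**Figure D2:**
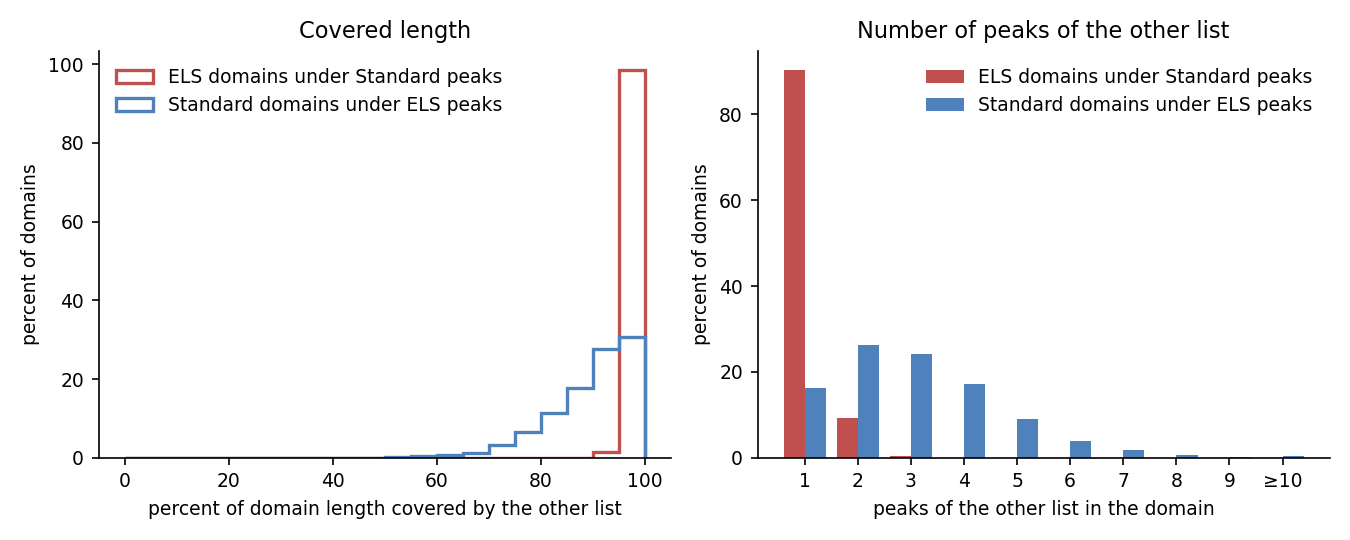
Left, the percent of each broad domain's length covered by peaks of the other list. Right, the number of peaks of the other list that a domain meets. ELS domains were covered to a median of 100% and mostly met 1 Standard peak, and Standard domains were covered to a median of 91.6% and met a median of 3 ELS peaks.

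The breaks were short. Inside Standard domains 6472 gaps separated neighbouring ELS peaks, with a median of 221 bp (interquartile range 185 to 306 bp, 153 to 1934 bp in all), and 91.0% were 500 bp or shorter. The shortest gap between any neighbouring peaks was 153 bp in the ELS list and 149 bp in the Standard list, so closer peaks never stand apart in these lists. From the first to the last ELS peak, the span took a median of 98.6% of the domain. Of the 2.46 Mb of Standard domain length without an ELS peak, 74.0% lay in inner gaps and 26.05% at the ends. Along the gene's direction, ELS peaks covered 90.2% of the 5′ part, 93.2% of the middle and 87.7% of the 3′ part when each domain was cut into 3 equal parts. When peaks within 1000 bp were joined before the width threshold was applied, 3033 ELS and 3802 Standard domains resulted, a ratio of 79.8% where the unjoined lists gave 43.9%.

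Whether a Standard domain met an ELS broad domain varied with its own height, width and place, but the 5000 bp threshold enters these shares. A domain just over the threshold loses its class after a small trim, while a far wider one can be cut and still hold a broad peak. The share with an ELS broad domain was 14.4%, 30.9%, 48.7% and 64.3% over the quartiles of the Standard fold, low to high. Over widths of 5000 to 6000, 6000 to 8000, 8000 to 10000, 10000 to 15000 and at least 15000 bp it was 16.6%, 36.3%, 51.2%, 69.0% and 89.4%. Over quartiles of distance from the start site it was 40.7%, 51.4%, 39.5% and 28.7%, highest in the second quartile. Domains with an ELS broad domain had a median width of 8477 bp and fold of 3.004, and those with only narrow ELS peaks 6341 bp and 2.74. The number of ELS peaks per domain varied little over these classes, with class medians of 2 to 4. From the narrowest to the widest class, median ELS coverage went from 89.4% to 94.6% and median Standard fold from 2.71 to 3.17. The splits by width and by fold are thus not separate.

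The 1196 pairs of 1 ELS and 1 Standard domain that matched each other only show the width directly. ELS domains had a median of 6569 bp and their Standard partners 8371 bp. The ELS partner was narrower in 1091 pairs (91.2%) and wider in 103, with a median difference, ELS minus Standard, of -1118 bp (interquartile range -2865 to -106 bp). The 5′ edge lay further downstream in ELS in 1008 pairs, by a median of 70.5 bp over all pairs, and the 3′ edge further upstream in 1015 pairs, with a median shift of -136 bp. In 688 pairs 1 edge was shared within 50 bp. The median fold of the paired domains was 2.66 in the ELS list and 2.98 in the Standard list, given side by side as above. Over the pairs, which share the peak calling and the sequence under them, Pearson's r between the lists was 0.654 for width and 0.615 for fold.

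**Figure D3:**
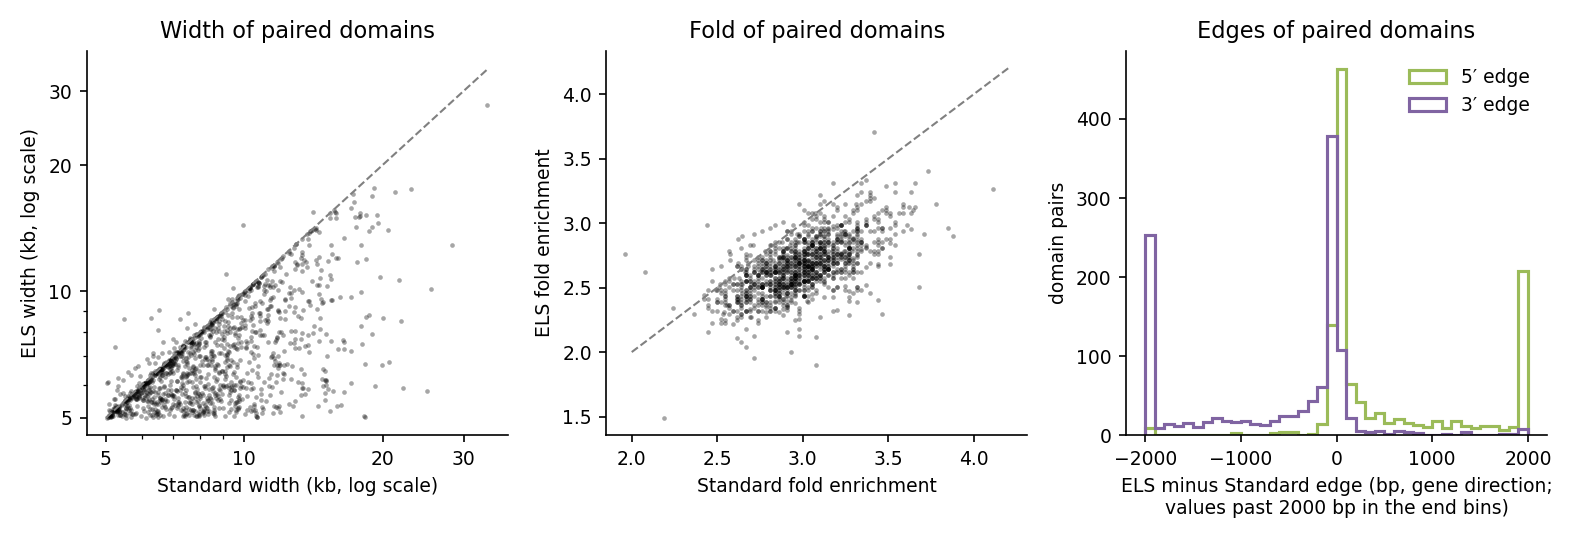
Width and fold enrichment of 1196 matched domains, ELS on the vertical and Standard on the horizontal axis, with the line of equality, and the shift of both edges in bp. In width most points lie under the line, since 91.2% of ELS partners were narrower, and the folds have medians of 2.66 in ELS and 2.98 in Standard on scales that may not be shared.

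Joining overlapping domains of both lists gave 3266 loci, over which peak length could be summed. Length was less in ELS at 3086 loci (94.5%), more at 150 and equal at 30, with a median difference, ELS minus Standard, of -621 bp (interquartile range -1072 to -286 bp). At the 1272 loci with a domain in both lists the median difference was -333 bp, at the 1913 with a Standard domain only -840 bp, and at the 81 with an ELS domain only 177 bp. The ELS list held 23.7 Mb at these loci and the Standard list 26.1 Mb, which is 90.8%. Outside the loci ELS held 68.9% of the Standard peak length. The loci were chosen for holding a wide peak in at least 1 list, so both shares are a description.

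The largest losses came from long Standard domains that many ELS peaks tiled incompletely. In Braf, a kinase of the MAPK cascade, 15 ELS peaks covered 16393 bp, the widest of 4155 bp and the highest fold 2.64, against 1 Standard domain of 20528 bp (chr6:39686568-39707096, fold 3.17), a difference of -4135 bp. In Tmem131, which takes part in collagen secretion, 10 ELS peaks covered 14281 bp against 18169 bp in Standard (chr1:36921468-36939637), a difference of -3888 bp. In Plcl2, a phospholipase C-like protein without enzyme activity, 11 ELS peaks covered 13719 bp against 17527 bp. Med13, of the kinase module of Mediator, had 10 ELS peaks over 6278 bp against 10069 bp. Hnrnpll, a splicing regulator, had 8 ELS peaks over 4022 bp, none wider than 761 bp, against 7664 bp in Standard, which was the smallest share kept among these 6, 52.5%. Zfand3, a zinc finger protein, had 6 ELS peaks over 4665 bp against 8300 bp.

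Gains were small. Ube2j2, a ubiquitin-conjugating enzyme of the endoplasmic reticulum, had 1 ELS domain of 6036 bp against 5315 bp in 3 Standard peaks, a difference of 721 bp and the largest gain. Arfgef2, an exchange factor for Arf GTPases, had 6484 bp in ELS against 5918 bp in 4 Standard peaks. Tmem55a, a phosphoinositide phosphatase, had 7134 bp against 6626 bp, and Igf1r, the receptor of insulin-like growth factor 1, 5183 bp against 4681 bp. The largest gain was thus under the median loss at loci with a Standard domain only.

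Listed genes differed in how many held a domain in either list. The 24.4% given above is over genes with a gene-body peak line, while counts here are over all genes of a list. The members with any gene-body peak are therefore given too. The lists were not tested for enrichment. Of 20 ubiquitin ligases 19 had a gene-body peak and 14 held a domain. Of 30 cytoskeletal and ankyrin or spectrin genes these were 30 and 19, and of 44 chromatin remodellers and histone modifiers 42 and 27. Of 20 postsynaptic scaffolds 17 had a gene-body peak and 9 held a domain, and of 32 RNA-binding and splicing factors 29 and 13. No domain lay in the markers of D2-type (0 of 9) or D1-type medium spiny neurons (0 of 8), astrocytes (0 of 12), oligodendrocytes and myelin (0 of 14), oligodendrocyte precursors (0 of 8), microglia (0 of 12) or striatal interneurons (0 of 11). Most of these markers have no gene-body peak at all, with 2 of 9 D2-type and 1 of 8 D1-type markers having any. Of the 20 markers shared by medium spiny neurons 19 had a gene-body peak and 5 held a domain, a share near that of all genes with a gene-body peak line. Of the 16 immediate early genes only 3 had a gene-body peak, and 1 held a domain, Homer1.

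Chromatin regulators had 50 ELS and 93 Standard domains, and 46.2% of the Standard ones held an ELS domain, against 40.1% over all Standard domains. In Kat6b, a histone acetyltransferase, 5 ELS peaks, the widest of 7663 bp, covered 94.5% of a Standard domain of 16437 bp. Crebbp, the CREB-binding acetyltransferase, had 5 ELS and 8 Standard domains, and 2 ELS peaks, the widest of 10340 bp, covered 97.8% of its widest Standard domain of 14543 bp. Among 26 elongation and H3K79 genes, 20 had a gene-body peak and 7 held domains, 6 in ELS and 12 in Standard. Ell had the longest, 17488 bp in ELS and 23091 bp in Standard, Ccnt2 (a cyclin of the elongation kinase P-TEFb) 10657 bp and 11208 bp, and Kmt2a (an H3K4 methyltransferase and frequent fusion partner of DOT1L recruiters in leukaemia) 8211 bp and 9898 bp. In Aff4, the scaffold of the super elongation complex, ELS peaks covered 87.7% of a Standard domain of 8286 bp. Dot1l itself had no domain, and its widest gene-body peak measured 2936 bp in ELS and 3386 bp in Standard. Kdm2b, a demethylase that has been reported to act on H3K79, had none either, with 1492 bp and 1825 bp.

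RNA-binding and ubiquitin genes varied among themselves. Ago2, the slicer of RNA interference, kept 1 ELS domain of 15620 bp over 99.5% of its Standard domain of 15691 bp. Celf2, a splicing factor, had 0 ELS and 9 Standard domains, and 7 ELS peaks, the widest of 3920 bp, covered 88.0% of the widest Standard one, of 14162 bp. In Herc1, a very large ubiquitin ligase, 4 ELS peaks, the widest of 7641 bp, covered 94.5% of a Standard domain of 14536 bp. Cul3, the cullin of BTB-adaptor ligases, had 10 ELS peaks, none over 3423 bp, across 85.7% of a Standard domain of 14583 bp. Both lists thus held a gene with a broad ELS domain beside a gene with a run of short ELS peaks.

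Each list with a domain had fewer domains in ELS than in Standard, as the whole lists of peaks did (43.9% as many), and differences between gene lists were not tested. Postsynaptic scaffolds had 6 ELS and 26 Standard domains, ionotropic glutamate receptors 2 and 15, synaptic adhesion genes 4 and 19, and the markers shared by medium spiny neurons 0 and 11. Gria1, an AMPA receptor subunit, had 0 ELS and 6 Standard domains, and Grin2b, an NMDA receptor subunit, 0 and 5. Shank2, a scaffold of the postsynaptic density, had 2 and 8, and Cadm1, an adhesion protein, 3 and 10. In Snap25, the SNARE protein of vesicle release, 9 ELS peaks, the widest of 4801 bp, covered 80.1% of the Standard domain of 17731 bp (chr2:136725967-136743698). In Map1b and Mapt, which encode microtubule-binding proteins, ELS peaks no wider than 5728 bp and 4697 bp covered 85.1% and 84.2% of Standard domains of 15008 bp and 13229 bp. Other cytoskeletal genes had wider ELS peaks. In Sptbn1, a beta spectrin, ELS peaks with a widest of 13437 bp covered 94.6% of a Standard domain of 16451 bp. In Kif1b, a kinesin motor of axonal transport, ELS peaks with a widest of 11746 bp covered 91.1% of 13625 bp.

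Among the genes of medium spiny neurons, Adcy5, the adenylyl cyclase that dopamine receptors control there, had 0 ELS and 4 Standard domains. The widest, of 8782 bp (chr16:35188754-35197536, fold 2.88), met 5 ELS peaks, the widest of 3154 bp, over 85.5%. Rarb, a retinoic acid receptor, had 6 ELS peaks over 52.9% of 7067 bp, Gnal, the olfactory-type G protein that couples to Adcy5, 5 peaks over 73.1% of 6937 bp, and Foxp1, a transcription factor, 6 peaks over 76.5% of 7055 bp. Bcl11b, a transcription factor of these neurons, kept 85.7% of 6172 bp in 3 peaks. ELS peaks covered a median of 85.5% of the 11 domains of these 5 genes, against 91.6% over all Standard domains, and the median fold of those 11 was 2.74. Coverage over all Standard domains ran with their fold, 85.0% in the lowest quartile, 90.1% in the next, which holds that median fold, and 95.2% in the highest.

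Domains marked expressed genes. The RNA fit tested 14016 genes, among them 1764 of the 1893 domain genes (93.2%) and 82.8% of the genes with gene-body peaks and no domain. Among coding genes alone these shares were nearer, 96.0% and 91.4%. They were 91.4% and 90.9% at spans of 10000 to 30000 bp, and 66.7% and 78.0% under 10000 bp. The median domain gene stood at 41.9 CPM in ELS knockdown libraries, 41.8 CPM in ELS GFP, 42.2 CPM in Standard overexpression and 43.0 CPM in Standard GFP (median library of each group), against 9.77, 9.57, 9.64 and 9.25 CPM over all genes tested and 16.1, 15.6, 15.7 and 15.9 CPM over genes with gene-body peaks but no domain. CPM are counts of a gene per 1 M counts (1 M is 1e6) of a library's scaled total. Per kb of annotated span, a scale on which long genes with little intron RNA stand low, coding genes with a domain had a median level of 0.591 CPM in ELS GFP and 0.627 CPM in Standard GFP, and those with peaks but no domain 0.432 CPM and 0.456 CPM. Genes whose domain was 10000 bp or wider (483 tested) reached 52.8 CPM in ELS GFP and 53.8 CPM in Standard GFP. In each class of coding genes with a span of 10000 bp or more, genes with a domain had the higher level per kb, with 0.797 CPM in ELS GFP and 0.870 CPM in Standard GFP against 0.557 CPM and 0.585 CPM at 10000 to 30000 bp. Under 10000 bp, where 8 coding genes with a domain were measured, it was lower. These levels describe the genes and were not tested.

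The knockdown group had between 0.462 and 8.80 M counts per library, ELS GFP between 1.76 and 11.1 M, the overexpression group between 2.48 and 7.88 M and Standard GFP between 0.314 and 9.80 M. Under 1 M counts were 4 of them, knockdown replicate 7 and Standard GFP replicates 1, 4 and 5, and the depth limits lowly expressed genes in these. Domain genes took 31.6% to 45.0% of a library's counts, and 5 of them took a large share of that: Cdk8 (a kinase of Mediator), Jarid2 (a partner of the Polycomb complex PRC2), Arhgap21 (a GTPase-activating protein), Gphn (gephyrin, the scaffold of inhibitory synapses) and the lincRNA Gm26561 had 14.6% to 33.6% of the counts together, and the other 1759 had 10.8% to 18.9%. Cdk8 alone had 7.93% to 21.4%. These 5 were picked after their values were seen, as those at 5000 CPM or more in the median library of every group. Where in these genes the reads lie, and whether other loci share them, cannot be read from counts per gene, so their level was not taken as a measure of their own transcripts.

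The targeted gene did not move with its label. Dot1l averaged 43.1 ± 15.2 CPM in libraries labelled Dot1l knockdown and 35.6 ± 11.4 CPM in ELS GFP (SD, n = 8 each), a log2 fold change of 0.28 (SE 0.27). Its Benjamini-Hochberg adjusted p was 0.985 by edgeR's quasi-likelihood test. It averaged 43.1 ± 19.0 CPM in libraries labelled Dot1l overexpression and 33.9 ± 10.8 CPM in Standard GFP, a log2 fold change of 0.33 (SE 0.27, edgeR adjusted p = 0.741). Between ELS GFP and Standard GFP the log2 fold change was 0.05 (SE 0.27, edgeR adjusted p = 0.974). All groups overlapped. The sources used here do not say whether transcripts of the vectors are counted under Dot1l, so directions in these groups are those of the labels.

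No domain gene passed an adjusted p of 0.05 by edgeR in any of the 3 comparisons, where the share over all genes tested was 0% as well. Between ELS GFP and Standard GFP, 56 domain genes (3.17%) were higher and 161 (9.13%) lower at an unadjusted p under 0.05, against 4% and 7.73% of all genes tested. The median log2 fold change of domain genes was -0.09, and -0.01 over all genes tested, with 1076 of 1764 domain genes and 7173 of all 14016 genes on the lower side. It was -0.08 for genes with a domain in both lists, -0.09 for those with a Standard domain only and -0.14 for the 30 with an ELS domain only. Without Standard GFP replicate 6 the median was -0.02, 0.04 over all genes, and 62 (3.51%) were higher and 85 (4.81%) lower, against 4.06% and 4.60% of all genes. Without ELS GFP replicate 2 it was -0.13, -0.04 over all genes, and 13 (0.736%) were higher and 169 (9.57%) lower, against 2.35% and 7.61% of all genes. DESeq2 put 8 domain genes, and 88 of all genes, past an adjusted p of 0.05.

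Between libraries labelled Dot1l overexpression and Standard GFP, 58 domain genes (3.29%) were higher and 139 (7.88%) lower at an unadjusted p under 0.05 by edgeR, against 4.59% and 6.28% of all genes tested. The median was -0.05, and 0.02 over all genes tested. Without Standard GFP replicate 6 it turned to 0.01, 0.07 over all genes, with 79 (4.47%) higher and 70 (3.96%) lower, against 4.71% and 3.56% of all genes. Between libraries labelled Dot1l knockdown and ELS GFP, 34 (1.93%) were higher and 54 (3.06%) lower, against 2.23% and 3.95% of all genes tested. Their median was 0.01, 0.00 over all genes tested, and without ELS GFP replicate 2 these were 0.05 and 0.03. In that setting 29 domain genes (1.64%) were higher and 9 (0.510%) lower, against 2.01% and 2.17% of all genes. DESeq2 put 1 domain gene past an adjusted p of 0.05 with the overexpression label and 0 with the knockdown label, where it called 42 and 2 of all genes. The ELS and overexpression comparisons share the Standard GFP libraries, and the ELS and knockdown comparisons share the ELS GFP libraries, so their values do not stand independently. In bulk tissue, fewer cells of a type and less RNA per cell cannot be told apart.

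**Figure D4:**
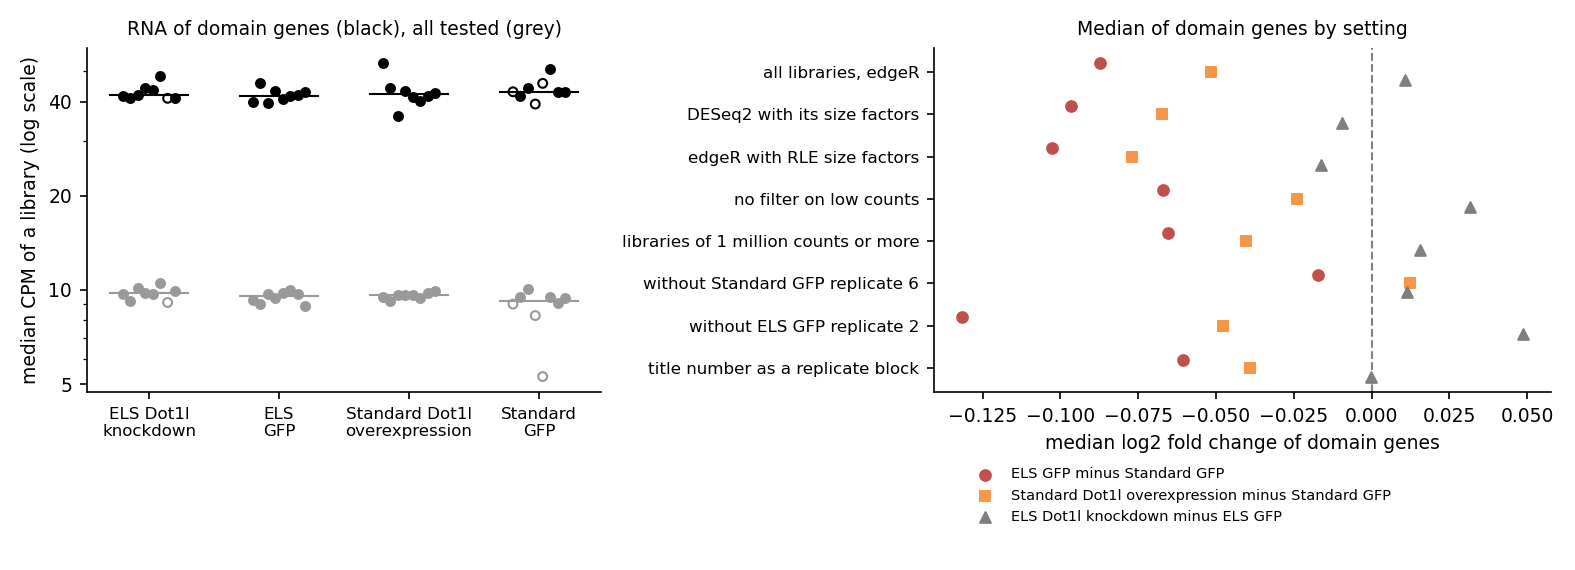
Left, the median CPM (log scale) of the 1764 domain genes (black) and of all 14016 genes tested (grey) in each library, with open circles for libraries under 1 M counts and lines at group medians. Right, the median log2 fold change of domain genes in 3 comparisons under each setting, where the ELS and overexpression medians move towards or past 0 without Standard GFP replicate 6, a setting in which the medians over all genes were 0.04 and 0.07.

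RNA values did not line up with the loss of peak length from gene to gene. Domain genes were ordered by the ratio of ELS to Standard peak length and cut into 3 sets of 588, which had kept a median of 68.1%, 79.6% and 88.6% of the Standard length. Their median RNA log2 fold changes, ELS GFP minus Standard GFP, were -0.07, -0.09 and -0.11. Over the 1764 genes Spearman's rank correlation between both measures was -0.04 and Pearson's r -0.05, a description over genes that share libraries and lists. The most shortened genes thus did not have the lowest RNA values.

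Genes with the smallest p show how much single libraries set the values. Tet2, a dioxygenase that oxidises 5-methylcytosine, had 32.9, 52.9 and 67.2 CPM in ELS GFP (lowest, median and highest library) and 58.4, 74.0 and 219 CPM in Standard GFP. The log2 fold change was -1.04 (SE 0.24, edgeR adjusted p = 0.12), and -1.12 without Standard GFP replicate 6. Over libraries of 1 M counts or more it was -0.32, with an unadjusted edgeR p of 0.0935. Tet2 had 1 ELS and 3 Standard domains, the widest of 5747 bp and 8442 bp. In libraries labelled Dot1l overexpression it had 42.5, 59.9 and 83.9 CPM, a log2 fold change of -0.87 (SE 0.24, edgeR adjusted p = 0.145), and -0.15 over libraries of 1 M counts or more.

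Of the other genes with the smallest p on the lower side in ELS GFP, Snx25, a sorting nexin of endosomes, had 16.8, 26.4 and 34.6 CPM in ELS GFP and 30.5, 35.4 and 223 CPM in Standard GFP. Pex14, of peroxisomal import, had 8.60, 13.6 and 17.8 CPM against 11.01, 20.8 and 99.95 CPM, and Carhsp1, an RNA-binding protein, 5.02, 7.03 and 20.0 CPM against 2.95, 13.0 and 152 CPM. The highest Standard GFP value was that of replicate 6 in each of these 3 genes. Their log2 fold changes were -1.33, -1.26 and -1.81 (edgeR adjusted p = 0.12 each), and -0.68, -0.71 and -0.39 without it. Snx25 had domains of 6074 bp in ELS and 7113 bp in Standard, and Carhsp1 5079 bp and 5093 bp.

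On the higher side, Lmnb1, which encodes lamin B1, had 9.33, 13.3 and 269 CPM in ELS GFP and 1.76, 10.99 and 17.0 CPM in Standard GFP, a log2 fold change of 2.11 (SE 0.58, edgeR adjusted p = 0.12). Bnip3, a receptor of mitophagy, had 2.76, 9.19 and 139 CPM against 0, 6.26 and 8.73 CPM. Rab11fip5, an effector of recycling endosomes, had 11.9, 19.9 and 178 CPM against 5.28, 13.3 and 24.7 CPM, and Ube2e3, a ubiquitin-conjugating enzyme, 30.8, 39.996 and 284 CPM against 19.1, 27.0 and 43.8 CPM. All 4 highest values belonged to ELS GFP replicate 2, and without it the log2 fold changes were 0.45, 0.44, 0.35 and 0.39 for Lmnb1, Bnip3, Rab11fip5 and Ube2e3. With all libraries those of Bnip3, Rab11fip5 and Ube2e3 were 1.97, 1.38 and 1.18. The Lmnb1 domain was nearly the same in both lists, 10990 bp in ELS and 11118 bp in Standard.

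With the overexpression label, Glrx3, a cytosolic glutaredoxin, had 8.15, 13.9 and 51.0 CPM against 1.76, 8.61 and 12.01 CPM in Standard GFP, a log2 fold change of 1.17 (edgeR adjusted p = 0.145). Ewsr1, an RNA-binding protein, had 57.0, 85.8 and 160 CPM against 29.9, 63.1 and 77.5 CPM (0.68, edgeR adjusted p = 0.173). Stat5b, a transcription factor of cytokine signalling, had 14.9, 21.7 and 258 CPM against 12.3, 19.0 and 22.5 CPM (1.51, edgeR adjusted p = 0.187), and only 1 overexpression library was far above Standard GFP. Mtmr2, a phosphoinositide phosphatase, had a log2 fold change of 0.96 (edgeR adjusted p = 0.188). Glrx3 and Ewsr1 had no ELS domain and Standard domains of 12774 bp and 17297 bp. On the lower side, Fbxo25, an F-box protein, had 6.68, 10.3 and 18.1 CPM against 5.22, 12.1 and 272 CPM, with a log2 fold change of -2.19 (edgeR adjusted p = 0.137), and -0.51 without Standard GFP replicate 6. Vezt, of adherens junctions, had -1.18, and -0.77 without it, and Pcmtd1, a protein related to an isoaspartate methyltransferase, -0.94 (edgeR adjusted p = 0.145 for both).

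With the knockdown label, Rhot1, a GTPase that anchors mitochondria to transport motors, had 22.4, 27.3 and 53.1 CPM against 14.7, 21.4 and 24.8 CPM in ELS GFP, a log2 fold change of 0.63 (SE 0.20, edgeR adjusted p = 0.387). Its domain measured 5692 bp in ELS and 7991 bp in Standard. Cyhr1, a zinc finger protein, Eif3h, a subunit of translation initiation factor 3, and Wipi2, an autophagy protein, had log2 fold changes of 1.85, 1.502 and 1.41, and of 0.02, 0.19 and 0.16 over libraries of 1 M counts or more. Their highest values, 419, 449.8 and 248 CPM, all came from knockdown replicate 7. On the lower side Rbm12b1, an RNA-binding motif protein, Atg4b, an autophagy protease, Fbxo28, an F-box protein, and Fam134c, a receptor of endoplasmic reticulum autophagy, had -2.70, -2.37, -1.85 and -1.70 (edgeR adjusted p = 0.335 each). Without ELS GFP replicate 2 these were -1.17, -0.09, -0.41 and -0.24.

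Among genes with the widest or most shortened domains, the RNA of those given here was close to or lower than Standard GFP in ELS GFP. Over all domain genes the interquartile range of the log2 fold change was -0.30 to 0.12. Mprip had 106, 129 and 207 CPM in ELS GFP and 108, 127 and 241 CPM in Standard GFP, a log2 fold change of -0.05 (SE 0.17, edgeR adjusted p = 0.961). Braf had 61.9, 80.6 and 99.4 CPM against 35.2, 78.9 and 234 CPM (-0.18, SE 0.25, edgeR adjusted p = 0.853), and Tmem131 55.0, 84.9 and 108 CPM against 63.4, 85.5 and 297 CPM (-0.37, SE 0.23, edgeR adjusted p = 0.572). Ubqln1 had 29.1, 36.3 and 42.3 CPM against 29.0, 43.3 and 266 CPM, a log2 fold change of -1.09 (SE 0.30, edgeR adjusted p = 0.12), and -0.44 without Standard GFP replicate 6. Phlpp1 was the exception in overlap: its 82.9, 94.3 and 100.7 CPM in ELS GFP all lay under its 109, 125 and 139 CPM in Standard GFP, with a log2 fold change of -0.43 (SE 0.19, edgeR unadjusted p = 0.0323, adjusted p = 0.358).

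The domain genes of medium spiny neurons were all on the lower side in ELS GFP, without any passing the adjusted test. Gnal had 44.8, 80.97 and 99.4 CPM in ELS GFP and 57.9, 120 and 234 CPM in Standard GFP (log2 fold change -0.75, SE 0.31, edgeR adjusted p = 0.294). Adcy5 had 90.2, 109 and 515 CPM against 70.4, 215 and 531 CPM (-0.56, SE 0.39, edgeR adjusted p = 0.633), and Rarb 44.7, 86.0 and 144 CPM against 23.2, 98.9 and 361 CPM (-0.65, SE 0.44, edgeR adjusted p = 0.616). Foxp1 and Bcl11b had -0.29 and -0.18. That side also held 1076 of all 1764 domain genes and 7173 of all 14016 genes tested. The groups overlapped in each gene, and 1 of the 5 was under an unadjusted p of 0.05. The list's median was -0.56, and -0.59 without Standard GFP replicate 6, beside -0.01 and 0.04 over all genes tested. Beside it, 10 markers that check the tissue had a median summed level of 801 CPM in ELS GFP and 1168 CPM in Standard GFP, with ranges of 605 to 1742 CPM and 583 to 2425 CPM. Their part in these values was not tested.

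Other lists were nearer to the background. All 7 domain genes of elongation and H3K79 methylation were on the lower side, with a median of -0.26, and 6 of 7 with -0.18 without Standard GFP replicate 6, and Kmt2a had -0.36 (SE 0.16, edgeR adjusted p = 0.344). Cytoskeletal domain genes had a median of -0.19, with 14 of 19 on the lower side, and RNA-binding ones -0.22, with 8 of 12, beside the 1076 of 1764 and 7173 of 14016 given above. Medians of chromatin, postsynaptic, synaptic adhesion and ubiquitin ligase genes, -0.09, -0.06, -0.07 and -0.01, turned to 0.05, 0.12, 0.04 and 0.04 without that library. Group medians of glial markers were lower in ELS GFP, and those of striatal interneuron and cortical excitatory neuron markers were higher. Summed over the 10 of 12 microglial markers that were measured, libraries had a median of 982 CPM in ELS GFP (744 to 1898) and 1262 CPM in Standard GFP (673 to 3995). Over 13 of 14 oligodendrocyte markers the median was 646 CPM (427 to 1131) in ELS GFP and 952 CPM (596 to 1088) in Standard GFP, and over 9 of 12 astrocyte markers 1842 CPM (1216 to 2867) and 2139 CPM (1881 to 3382). Over 10 of 11 striatal interneuron markers the median was 87.7 CPM (67.7 to 106) in ELS GFP and 65.1 CPM (24.7 to 343) in Standard GFP. Over 6 markers of cortical excitatory neurons it was 252 CPM (107 to 320) and 212 CPM (122 to 319). The groups overlapped in each list. The highest values of the microglial and oligodendrocyte lists belonged to ELS GFP replicate 2 and Standard GFP replicate 6 in their groups. The part of these libraries' cell makeup in the values was not tested.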

How the data were processed

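Tissue punches were fixed, sonicated and precipitated with an H3K79me2 antibody, and RNA was taken from tissue with a column kit, per the labels' protocols. The build mm10 and the tools DESeq2, featureCounts, FastQC and HISAT2 stand in the submitters' processing notes, with no versions or roles. The authors deposited 1 annotated peak list per rearing group, in which each peak has a q-value and a ratio called fold enrichment, per the file headers. The sources used here name neither the caller nor the background of that ratio, nor how libraries were pooled. The authors deposited raw counts for 52636 genes in 32 RNA libraries, and 0 columns were left unmatched to a label. The sources used here do not say whether counting used strand, so a gene cannot be told apart from an antisense or overlapping partner.

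Annotation lines were reduced to distinct peaks, and lists were compared at an overlap of at least 1 bp with Python 3.11.15 and pandas 2.3.3. The counts went into edgeR 4.0.16 under R 4.3.3 (filterByExpr, TMM, quasi-likelihood test, 28 residual degrees of freedom, common biological coefficient of variation 0.566) in 1 fit of all libraries. The code was also run on simulated counts, which held no single library far from its group, so that run does not cover such libraries. The SE of a log2 fold change is its size over the square root of the F statistic. CPM are counts per 1 M counts of the TMM-scaled library. The alternatives were DESeq2 1.42.0 with its size factors, edgeR with RLE factors, no filter on low counts, libraries of 1 M counts or more, each of 2 libraries left out, and the number in the sample titles as a block. The labels do not say that replicates are separate animals, so p-values measure only the spread between these samples.

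The members and lists were chosen with earlier results of these data known. Named are the 6 widest domains and the 4 with the highest fold of each list, the 6 loci with the largest loss and the 4 with the largest gain, the 5 genes with most domains, the domains at the width threshold, the 4 domain genes with the smallest p in each direction of each comparison, the list members with the widest domains, and Dot1l and Kdm2b. A gene that this rule picks is not reported here. Symbols matched 52404 gene IDs. A check of CG content over domain genes is void, since 1428 of 1891 symbols (75.5%) matched a RefSeq window.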

Additional observations from a re-analysis of the deposited data

Results flagged for a closer look

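Of 64 group values checked for a library far from the other 7 of its group, 25 stood apart, where chance flags about 1 in 20 groups. Most of these genes were picked for the smallest p, which such a library can set, so that rate is no yardstick for the 25. ELS GFP replicate 2 stood apart in 9 genes of the report: Lmnb1 at 269 CPM (nearest library 22.7), Rab11fip5 at 178, Bnip3 at 139, Ube2e3 at 284, Carhsp1 at 20.0, Rbm12b1 at 60.1, Atg4b at 347 (nearest 16.4), Fbxo28 at 225 and Fam134c at 214 CPM. Standard GFP replicate 6 stood apart in 5: Snx25 at 223 CPM, Pex14 at 99.95, Carhsp1 at 152 (nearest 15.7), Fbxo25 at 272 and Kdm2b at 81.3 CPM. Both libraries also had the highest summed level of microglial and of oligodendrocyte markers in their groups. ELS GFP replicate 2 was highest in astrocyte, oligodendrocyte precursor and tissue check markers too, and Standard GFP replicate 6 in striatal interneuron markers. The part of cell makeup in these values was not tested.

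Knockdown replicate 7, which held 0.462 M counts, was highest in Cyhr1 at 419 CPM, Eif3h at 449.8 and Wipi2 at 248 CPM. Overexpression replicate 1 was highest in Glrx3 at 51.0 CPM and Stat5b at 258 CPM, and lowest in Kdm2b at 10.3 CPM. It also had the highest median over domain genes of its group, 53.0 CPM (nearest 44.1), as knockdown replicate 6 had in its own, 48.5 CPM (nearest 44.3). The last 3 were overexpression replicate 7 in Fbxo25 at 18.1 CPM, knockdown replicate 5 in Atg4b at 21.2 CPM, and Standard GFP replicate 5, a library under 1 M counts, lowest in Dot1l at 10.6 CPM.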

How the results depend on the processing

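The excess of Standard domains held at each width: 4028 in ELS and 7060 in Standard at 3000 bp or more, and 160 and 575 at 10000 bp or more. Joining peaks within 1000 bp gave 3033 ELS domains. A single ELS peak over at least 50% of a Standard domain was found in 63.3%, the widest ELS peak took 60.0% of its width, and the reverse coverage was 100%. The median length difference was -757 bp at loci of the widest domains and -333 bp at loci of both lists, and genes of the widest domains stood at 52.8 CPM in ELS GFP and 53.8 CPM in Standard GFP. DESeq2 called 8 domain genes in ELS GFP and 1 with the overexpression label. Named genes past its adjusted p of 0.05 were Bnip3 (0.0411), Tet2 (0.0162), Snx25 (0.0170), Pex14 (0.0327) and Pcmtd1 (0.0428). Adjusted p-values over all 24 named results ran from 0.0162 to 0.998 with DESeq2, and with edgeR settings 0 passed. Cyhr1 with the knockdown label turned to -0.012 with DESeq2.

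Leaving out ELS GFP replicate 2 or Standard GFP replicate 6 gave ranges, and the reported values without each stand in the report. In ELS GFP 13 to 62 domain genes were higher and 85 to 169 lower at an unadjusted p under 0.05, with medians of -0.13 and -0.017. With the overexpression label 70 to 146 were lower, with medians of -0.048 and 0.012. With the knockdown label 38 to 93 passed, 9 to 57 of them lower, with medians of 0.011 and 0.049. Shares over all genes tested stand in the report for some of these counts only, so the ranges are not a result about domain genes. Leaving out Standard GFP replicate 6, added after the data were seen, turned list medians to 0.12 (postsynaptic), 0.037 (synaptic adhesion), 0.055 (chromatin) and 0.036 (ubiquitin ligases). With no filter on low counts the medians were -0.024 for overexpression and 0.032 for knockdown. The knockdown median, 0.01, turned to -0.0094 with DESeq2 and -0.016 with RLE factors. The cause was not tested.

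The replicate block on title numbers left 129 domain genes at an unadjusted edgeR p under 0.05 in ELS GFP, 73 of them lower. The unblocked fit had 217 (12.3%) and 161 (9.13%), against 11.7% and 7.73% of all genes tested. No share over all genes is given for the blocked fit, so its counts are not a result about domain genes. With title numbers as a block, the knockdown median was -0.00012. The numbers do not pair the libraries: same-numbered ones correlated at a mean of 0.027 and others at -0.006. Over all alternatives, values for domains or domain genes as a whole stayed close in 94 cases, moved in 26 and turned sign in 4. Counts that did not change, as where no gene passed an adjusted p in either fit, are among the 94. Alternatives for overlap and coverage entered as moved by rule, and those for length at loci unless the sign turned. This tally is thus no measure of robustness. Among single genes and gene lists 180 cases stayed, 5 passed the threshold newly and 5 turned sign. Here a gene stayed if its sign and its side of an adjusted p of 0.05 did not change, and a list if its sign did not. A change of size was not counted, so genes that moved far towards 0 without a single library are among those that stayed. Peak lists allow no error to be put on any of this, since each is 1 list, and libraries under 1 M counts limit the RNA of weakly expressed genes.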
